A study of Canis lupus familiaris with 23 samples.

Results

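The genes described here are those of the cytosolic ribosomal proteins, the protein subunits of the ribosomes that translate nuclear-encoded messenger RNA. They were taken by gene symbol: every probe set (a group of array probes for 1 transcript) whose platform annotation held a single symbol beginning with RPL or RPS and a digit, or the symbol RPLP0, RPLP1, RPLP2 or RPSA, with the RPS6K kinases left out. Where a gene had several probe sets, the set with the highest mean over all 23 samples stood for it. This gave 67 genes of 6540 named on the array. Of the 67, 39 encoded proteins of the large subunit and 26 proteins of the small subunit. The symbol rule also took in 2 genes that encode no ribosomal protein, the pseudogene symbol RPL18P and RPS19BP1, a protein that binds RPS19.

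Each ribosome carries a single copy of nearly every ribosomal protein, so that cells make these proteins in matched amounts from some of the most abundant messenger RNAs they have. Ribosome assembly begins in the nucleolus, where biogenesis factors process ribosomal RNA and dock the proteins, and it runs fast in growing and dividing cells. Several of the proteins also have roles away from the ribosome, and inherited loss of single members such as RPS19, RPS24, RPS29, RPL5, RPL11 or RPL35A causes Diamond-Blackfan anemia, a failure of red cell production.

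Transcript levels were measured in dogs on Affymetrix canine arrays to set osteosarcoma, a malignant bone tumor, against normal organs. The 15 tumors were primary osteosarcomas removed from pet dogs before any chemotherapy. The cell lines were 2 cultured canine osteosarcoma lines, and the labels do not say which of them is which. Kidney, liver and lymph node were represented by 2 samples each from dogs of a research colony, and no normal bone was included, so that a difference between tumors and organs is also one between tissues. Breed, age and sex were not given in the labels. The study describes the samples of an organ as biological replicates, neither pooled nor repeat assays, and the labels do not tie samples of different organs to a dog. Values are RMA (robust multi-array average) expression values on a log2 scale, on which a difference of 1 is a doubling, and the number of arrays limits their precision.

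The marker lists for bone, hepatocytes and kidney epithelium had their highest mean levels in the tissues they mark, although not every single marker did. The mean of 5 measured bone markers of 6 ran from 8.56 to 10.42 over the tumors and from 8.85 to 9.53 in the cell lines, against 5.93 to 7.30 in the organs. In liver, 4 of 6 hepatocyte markers averaged 11.62 and 12.24, and in kidney, 4 of 6 kidney epithelium markers averaged 8.33 and 8.89. BGLAP, which encodes osteocalcin of bone matrix, averaged 5.56 in tumors and 4.71 in the cell lines against 6.11 in kidney and 5.91 in liver. APOC3, a hepatocyte marker, averaged 11.69 in kidney and 11.19 in liver, and UMOD, a marker of kidney tubule, 6.42 in kidney, 6.17 in liver and 5.97 in tumors. Arrays also differed in how well the 5′ ends of control transcripts were detected. The 5′ index, the mean by which control probe sets at the 3′ ends of actin and Gapdh exceeded those at the 5′ ends, was between 3.15 and 6.45 on 10 arrays and no higher than 0.85 on the other 13. The 10 arrays with low 5′ signal were those of 7 tumors and of replicate 1 of each organ, so that each organ held 1 array of each class and both cell lines were of the full class.

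Taken over all 67 genes, the level was highest in lymph node and lowest in liver, with the tumors and cell lines between them. Each gene was set against its own mean over the 23 samples and the 67 deviations were averaged. The mean deviation was 0.38 and 0.30 in the 2 lymph nodes, 0.14 and 0.13 in the cell lines, -0.21 and -0.38 in kidney and -0.34 and -0.54 in liver. The tumors ran from -0.29 to 0.26 with a median of 0.04 (SD 0.14, n = 15). Both lymph nodes stood above every tumor and both livers below every tumor, while kidney 1 was above the lowest tumor and the cell lines lay within the tumor range. The large subunit genes alone averaged 0.34 and 0.41 in lymph node and -0.29 and -0.51 in liver, and the small subunit genes alone 0.25 and 0.35 in lymph node and -0.39 and -0.58 in liver. In whole tissue, fewer cells of a type and less RNA per cell cannot be told apart. The mean of the 2 lymphocyte markers measured, of 9 listed, was 9.41 and 10.43 in lymph node, 5.44 to 7.27 over the tumors and 5.26 to 6.15 in the other samples, and its part in these differences was not tested.

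**Figure D1:**
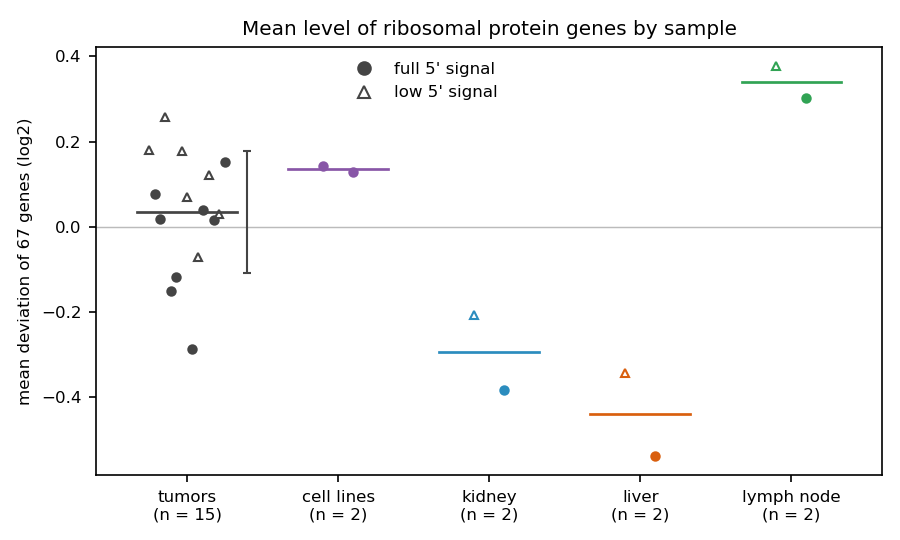
The vertical axis is the mean deviation of the 67 genes from their 23-sample means (log2), and each point is 1 sample. Horizontal lines are group means and the bar beside the tumors is their mean ± SD. Open triangles are arrays with low 5′ signal. Both lymph nodes, at 0.38 and 0.30, lie above all 15 tumors, and both livers, at -0.34 and -0.54, lie below them.

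Between the organs, lymph node and liver were farthest apart. Of the 67 genes, 12 were higher in lymph node than in liver and 1 was lower (limma, adjusted p under 0.01), beside 2.82% of all 23836 probe sets called higher and 3.96% called lower. The difference was positive for 61 genes, with a median of 0.86, and the median over all probe sets was 0.01. Most of the 67 are abundant transcripts, and abundant transcripts as a whole were also higher in lymph node. Of the 49 genes with a mean of 10 or more, all 49 differences were positive (median 0.89) and 24.5% were called higher, and of the 558 probe sets at that level, members included, 413 were positive (median 0.72) and 13.8% were called. The level of 10 was chosen after the values were seen. Against kidney, 5 genes were higher in lymph node and 0 lower, beside 2.14% and 3.52% of all probe sets. That difference was positive for 58 genes (median 0.67). Liver against kidney gave 0 calls by limma in either direction, beside 2.11% and 1.69% of all probe sets. An unadjusted p under 0.05 was reached by 7 of the 67 genes and by 3284 of 23836 probe sets. Of the 67 differences, 49 were negative (median -0.16). Among the 3 organs the highest mean was in lymph node for 58 genes, in kidney for 6 and in liver for 3. Over all probe sets the highest was in lymph node for 38.4%. Lymph node and liver values came from 1 array of each 5′ class, and within the arrays of low and of full 5′ signal the lymph node minus liver median was 0.77 and 0.90.

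The genes called higher in lymph node than in liver were RPL7A, RPL12, RPL13A, RPL32, RPL35 and RPL35A of the large subunit and RPS3, RPS9, RPS14, RPS15, RPS18 and RPS19 of the small subunit. All but RPL7A, RPS9, RPS15, RPS18 and RPS19 are named here after their values were seen. Leaving out any 1 of the 4 samples left 4 to 6 genes called between lymph node and liver, the fewest without liver 1 or without lymph node 2. With the replicate number as a block, 4 were called, all among the 13. The 5 calls between lymph node and kidney were all lost without kidney 1, and that of RPS19 in no other such fit. The replicate block gave 2 calls there, none of them among the 5.

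**Figure D2:**
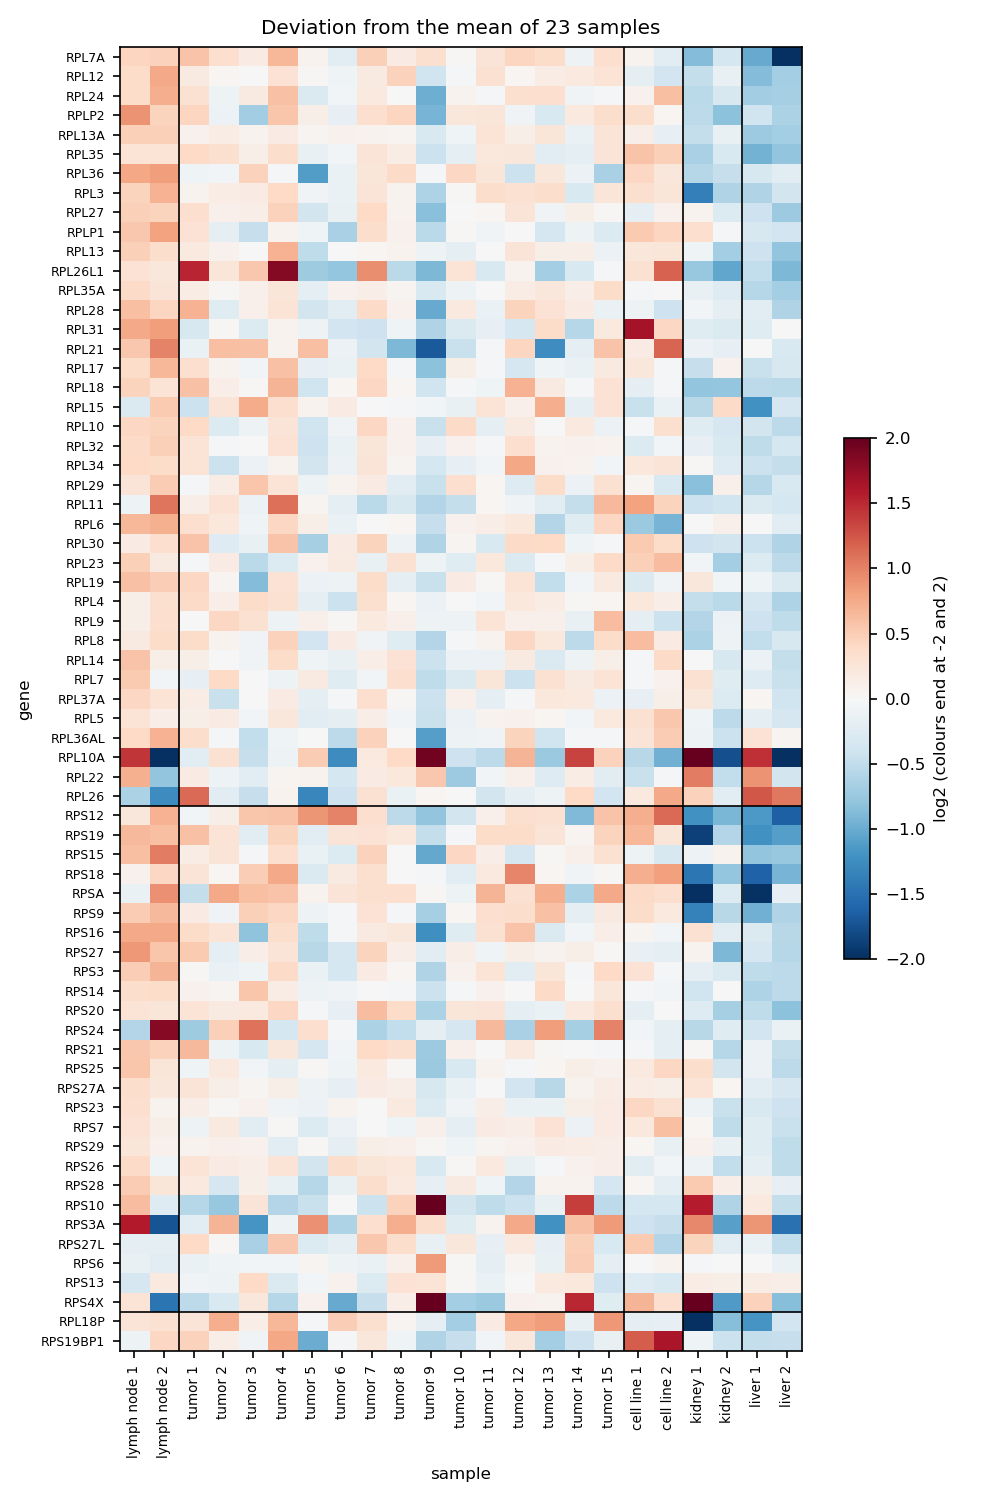
Each row is 1 gene and each column 1 sample. The colour is the deviation of the gene from its mean over 23 samples (log2), with colours ending at -2 and 2. Rows run from the large subunit (39 genes) to the small subunit (26) and the 2 genes that encode no ribosomal protein, each ordered by the lymph node minus liver difference. The lymph node columns are mostly red and the liver columns mostly blue, and RPL10A, RPS4X and RPS3A change colour between replicates of the same organ.

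The widest organ difference among the called large subunit genes was that of RPL7A, whose protein binds ribosomal RNA during assembly of the large subunit. RPL7A stood at 12.45 and 12.47 in lymph node, 11.15 and 11.67 in kidney, and 11.01 and 9.64 in liver. In the tumors its lowest value was 11.79, its median 12.34 and its highest 12.68, and the cell lines were at 12.09 and 11.80. All 15 tumors were above both kidneys and both livers. RPL7A was higher in lymph node than in liver by 2.14 ± 0.32 (SE, limma adjusted p 7.52e-05) and higher in tumors than in liver by 1.95 ± 0.24 (adjusted p 4.26e-06), and both calls held in every fit that left out 1 sample of the compared groups. The liver replicates differed by more than the whole tumor range, and the liver minus kidney difference of -1.09 ± 0.32 missed the threshold (adjusted p 0.0519) but passed without liver 1 (adjusted p 0.000473). Of its 4 other probe sets, 3 gave tumor minus liver differences of 1.35, 1.02 and 1.45 and the fourth 0.07.

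RPL13A, a surface protein of the large subunit that also takes part in silencing the translation of inflammatory messages, had close replicates in lymph node and liver. It was at 13 and 12.99 in lymph node, 12.04 and 12.37 in kidney and 11.79 and 11.85 in liver. The tumors lay between 12.22 and 12.80 with a median of 12.61, below both lymph nodes and above both livers in all 15. The lymph node minus liver difference was 1.18 ± 0.16 (adjusted p 2.83e-05) and the tumor minus liver difference 0.78 ± 0.12 (adjusted p 0.000103). Both were called in every fit that left out 1 sample. The lymph node minus kidney difference of 0.80 ± 0.16 (adjusted p 0.00247) was lost without kidney 1, lymph node 1 or lymph node 2.

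RPL12, which sits at the base of the stalk that recruits elongation factors, was at 12.21 and 12.60 in lymph node, 11.38 and 11.69 in kidney and 10.98 and 11.17 in liver, with tumors from 11.45 to 12.30 and a median of 11.999. All 15 tumors exceeded both livers, by 0.88 ± 0.15 on average (adjusted p 0.000298), a call lost without liver 1 (adjusted p 0.0229). Against kidney, lymph node was higher in RPL12 by 0.87 ± 0.20 (adjusted p 0.00762), lost without kidney 1, kidney 2 or lymph node 2. RPL35A, a protein of the large subunit, was at 13.25 and 13.13 in lymph node and 12.31 and 12.20 in liver. Its tumors ran from 12.56 to 13.23 with a median of 12.97, again above both livers in all 15 (0.69 ± 0.12, adjusted p 0.000368), and this was lost without liver 2. Lymph node exceeded liver for both genes, RPL12 by 1.33 ± 0.20 and RPL35A by 0.94 ± 0.16, in every fit that left out 1 of the 4 samples. RPL35 showed the same order with 12.55 and 12.56 in lymph node and 11.34 and 11.49 in liver, tumors from 11.86 to 12.68 (median 12.43) and the cell lines above every tumor, at 12.85 and 12.77. Tumors exceeded liver in RPL35 by 0.94 ± 0.17 (adjusted p 0.000513), lost without liver 1.

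RPL3, an elongated protein that reaches toward the peptidyl transferase center, was lowest in kidney rather than in liver. Kidney was at 10.31 and 11.07, liver at 11.09 and 11.31, and lymph node at 12.13 and 12.38. The tumors ran from 11.07 to 12.09 with a median of 11.83, and the cell lines were at 11.99 and 11.93. RPL3 was higher in lymph node than in kidney by 1.56 ± 0.28 (adjusted p 0.000548) and in tumors than in kidney by 1.07 ± 0.21 (adjusted p 0.00112). The first call was lost without kidney 1 or lymph node 2, the second without kidney 1. RPL18 was at 11.37 and 11.39 in kidney and 11.76 to 12.86 over the tumors (median 12.20), all 15 above both kidneys. Its difference of 0.92 ± 0.22 (adjusted p 0.00792) was lost in 7 of 17 fits that left out 1 sample, among them each kidney and 5 tumors.

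The stalk proteins RPLP1 and RPLP2, named after their values were seen, passed no threshold. RPLP1 was at 12.94 and 13.22 in lymph node, above all 15 tumors (11.76 to 12.75, median 12.32), and the tumor minus lymph node difference was -0.80 ± 0.20 (adjusted p 0.0141). RPLP2 was at 12.61 and 12.16 in lymph node, 11.19 and 10.89 in kidney and 11.32 and 11.07 in liver, with tumors from 10.78 to 12.26.

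RPL26 ran the other way from most of the large subunit. The RPL26 protein lies beside the exit tunnel of the large subunit. RPL26 was at 8.96 and 8.77 in liver, 8.17 and 7.50 in kidney and 7.08 and 6.46 in lymph node, and was the 1 gene called lower in lymph node than in liver (-2.09 ± 0.48, adjusted p 0.00494). The call was lost without any 1 of the 4 samples (adjusted p up to 0.0838). The tumors ran from 6.41 to 8.84 with a median of 7.59 and 14 of 15 were below both livers, a difference of -1.26 ± 0.36 that missed the threshold (adjusted p 0.0196). Its only other probe set was dimmer and gave a lymph node minus liver difference of -0.52 (adjusted p 0.235).

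Among the small subunit genes, RPS19, whose protein is needed to mature the small subunit RNA, was at 13.14 and 13.08 in lymph node, 11.28 and 11.38 in liver and 10.62 and 11.90 in kidney. The tumors ran from 12 to 13.08 with a median of 12.75, all 15 above both kidneys and both livers and below both lymph nodes, and the cell lines were at 13.16 and 12.72. Lymph node exceeded kidney by 1.85 ± 0.34 (adjusted p 0.000728) and liver by 1.78 ± 0.34 (adjusted p 0.000929). The kidney replicates differed by more than the tumor range, and without kidney 1 the kidney call was lost. The liver call was lost without liver 1, lymph node 1 or lymph node 2, where the adjusted p reached 0.011.

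RPS18, a protein of the head of the small subunit, was at 11.73 and 12.06 in lymph node, 10.19 and 10.87 in kidney and 10.02 and 10.71 in liver. Its tumors ran from 11.35 to 12.61 with a median of 11.68, all 15 above both kidneys and both livers, and the cell lines were at 12.36 and 12.46. Of the 15 tumors, 13 were below both cell lines. Lymph node exceeded liver in RPS18 by 1.53 ± 0.34 (adjusted p 0.00395), lost without liver 1, lymph node 1 or lymph node 2. RPS9, which helps to keep decoding accurate, was at 12.50 and 12.63 in lymph node, 10.64 and 11.43 in kidney and 11.03 and 11.39 in liver, with tumors from 11.33 to 12.58 (median 12.16), 14 of 15 above both kidneys. RPS9 was higher in lymph node than in kidney by 1.53 ± 0.31 (adjusted p 0.00202), lost without kidney 1, lymph node 1 or lymph node 2, and than in liver by 1.36 ± 0.31 (adjusted p 0.00514), lost without any 1 of the 4 samples. RPS15, a late-joining protein of the small subunit, differed between lymph node and liver (12.64 and 13.05 against 11.25 and 11.28, 1.58 ± 0.33, adjusted p 0.00248) but had kidney values of 11.93 and 12.10 within the tumor range of 11 to 12.49. The RPS15 call was lost without liver 1, liver 2 or lymph node 2.

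RPSA, the laminin receptor as well as a small subunit protein, had the largest tumor minus kidney difference of the 67 genes and did not pass. Kidney was at 8.54 and 11.55, liver at 9.84 and 11.66 and lymph node at 11.68 and 12.73, so that replicate 1 was the lower in each organ. The tumors ran from 11.18 to 12.58 with a median of 12.15. The difference was 2.06 ± 0.52 (adjusted p 0.0105), and 13 of 15 tumors were above both kidneys. The lower sample of each organ was the array with low 5′ signal, and in the organs the 5′ signal and the replicate number cannot be told apart.

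**Figure D3:**
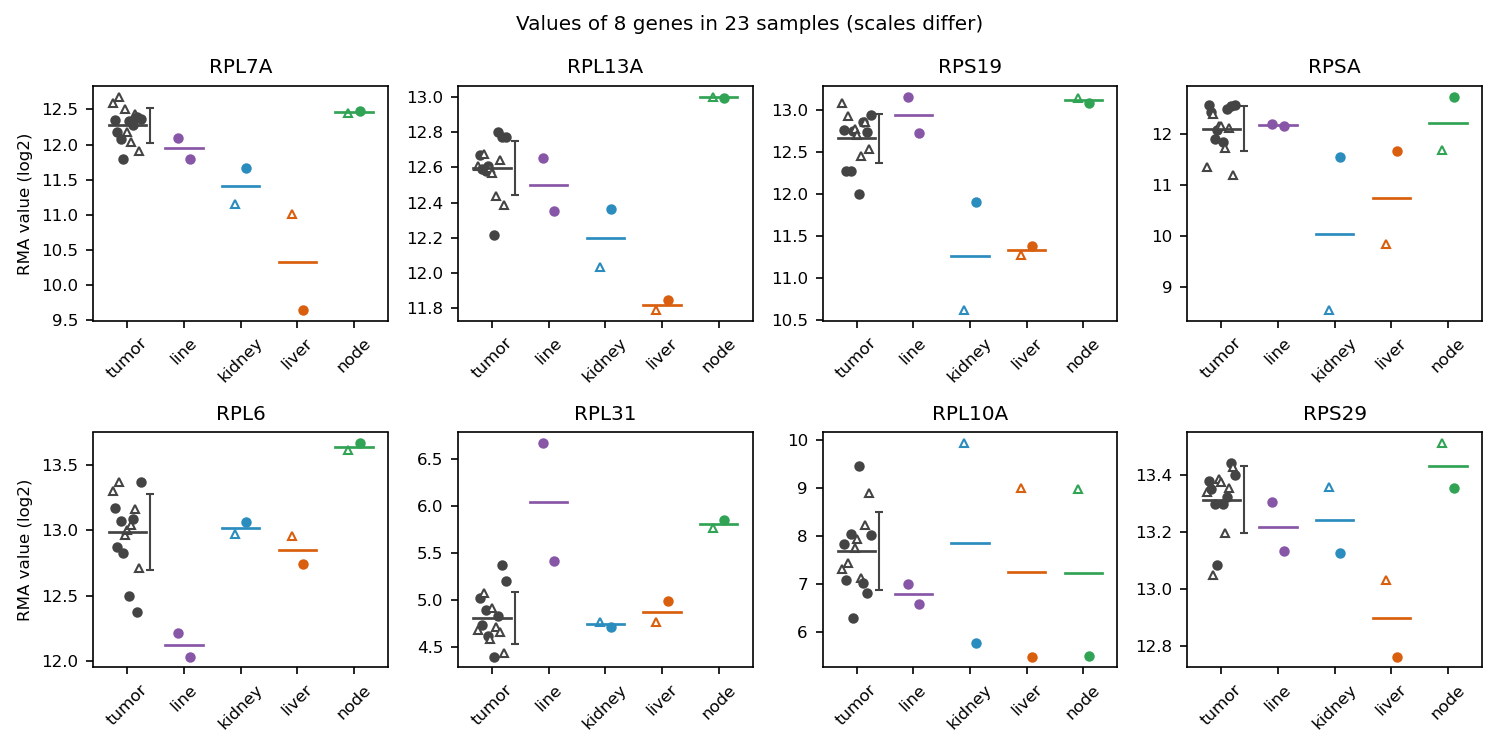
Each panel is 1 gene, the vertical axis is its RMA value (log2, scales differ between panels) and each point is 1 of 23 samples (tumors, cell lines, kidney, liver and lymph node). Lines are group means, the bar is the tumors' mean ± SD, and open triangles are arrays with low 5′ signal. RPL7A, RPL13A and RPS19 in all 15 tumors lie above both livers, RPL6 in both cell lines lies below all 15 tumors, and RPL10A splits by replicate in every organ.

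The question of the study's own contrast was how tumors differ from normal tissue. The study also lists spleen among its normal canine tissues, and these samples hold none, so the contrast here is not the same. Against the 6 organ samples pooled as 1 group, 0 of the 67 genes were called by limma in either direction. Beside this, 3.02% of all probe sets were called higher in tumors and 2.93% lower. An unadjusted p under 0.05 was reached by 13 of the 67 genes and by 6315 of 23836 probe sets. The difference was positive for 51 genes (median 0.13), and that of the 558 probe sets with a mean of 10 or more had a median of 0.26. The highest differences were those of RPSA (1.10 ± 0.40, adjusted p 0.0776), RPL18P (0.93 ± 0.28, adjusted p 0.0331) and RPS18 (0.89 ± 0.24, adjusted p 0.0173). The lowest were those of RPL31 (-0.33 ± 0.17, adjusted p 0.219), RPL21 (-0.31 ± 0.30, adjusted p 0.577) and RPS28 (-0.31 ± 0.13, adjusted p 0.143). Leaving out lymph node 1 or lymph node 2 gave 2 calls each, RPS18 among them (adjusted p 0.00598 and 0.00155). The pooled group held lymph node, mostly above the tumors, with kidney and liver, mostly below them.

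Set against each organ in turn, with the same 15 tumors in all of these contrasts, some of the genes were higher in tumors than in liver and in kidney and none was called against lymph node. Against liver, 10 genes were higher and 0 lower, beside 3.42% and 5.86% of all probe sets. The difference was positive for 61 genes (median 0.43). Of the 49 genes with a mean of 10 or more, 48 were positive (median 0.49) and 18.4% were called, below the 23.5% called among the 558 probe sets at that level (median 0.61, 455 positive). The 10 were RPL7A, RPL13A, RPL12, RPL35 and RPL35A of the large subunit and RPS19, RPS18, RPS12, RPS14 and RPS29 of the small subunit. RPS18 differed by 1.46 ± 0.25 (adjusted p 0.000298) and RPS19 by 1.33 ± 0.25 (adjusted p 0.000721). For RPS12, at 7.83 and 7.35 in liver and 8.09 to 9.97 over the tumors (median 9.27), the difference was 1.53 ± 0.38 (adjusted p 0.00752). RPS14, whose loss underlies the anemia of the 5q deletion syndrome, differed by 0.64 ± 0.16 (adjusted p 0.00774) and RPS29, a zinc-binding protein of the small subunit head, by 0.42 ± 0.11 (adjusted p 0.00878). All 15 tumors were above both livers for each of the 10. Called genes were picked on these same values, so this and the like counts given for single called genes add no support to the calls. The share of all probe sets without overlap was not counted. The calls of RPS12, RPS14 and RPS29 were lost in 10, 9 and 14 of 17 fits that left out 1 sample, liver 1 or liver 2 among them, and that of RPS18 without liver 1 and of RPS19 without either liver. Without liver 1, 3 genes were called, and without liver 2, 5.

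Against kidney, 6 genes were higher in tumors and 0 lower, beside 2.0% and 5.26% of all probe sets, and 51 differences were positive (median 0.28). Of the 49 genes with a mean of 10 or more, 10.2% were called, against 17.0% of the 558 probe sets at that level (medians 0.30 and 0.35). They were RPS19 (1.40 ± 0.25, adjusted p 0.00055), RPS18 (1.29 ± 0.25, adjusted p 0.0013) and RPS9 (1.07 ± 0.23, adjusted p 0.00316) of the small subunit, RPL3 and RPL18 of the large, and the pseudogene symbol RPL18P (1.72 ± 0.33, adjusted p 0.0011). Without kidney 1 none of the 6 was called, with adjusted p up to 0.272, and kidney 1 was the lower of the 2 kidneys for each of them. Kidney 1 was also the kidney array with low 5′ signal. Within the arrays of low and of full 5′ signal the median tumor minus kidney difference was 0.24 and 0.30.

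Against lymph node, 0 genes were called by limma, beside 1.33% of all probe sets called higher in tumors and 2.91% called lower. Of the 67 genes 20 had an unadjusted p under 0.05, as did 4053 of 23836 probe sets. The difference was negative for 58 genes (median -0.33), and for 47 of the 49 with a mean of 10 or more (median -0.37). At that level 310 of 558 probe sets were negative (median -0.09). The lowest were RPL31 (-0.996 ± 0.24, adjusted p 0.0103), RPL21 (-0.92 ± 0.46, adjusted p 0.334) and RPL36 (-0.85 ± 0.28, adjusted p 0.0695), and the highest RPL26 (0.83 ± 0.36, adjusted p 0.216), RPS4X (0.57 ± 0.70, adjusted p 0.841) and RPL10A (0.45 ± 0.93, adjusted p 0.927). RPL36, a small protein of the large subunit, was at 11.77 and 11.82 in lymph node, above all 15 tumors (9.87 to 11.45, median 10.95). RPL31 passed the threshold in 8 of the alternatives tried, among them the fits without tumor 13 (adjusted p 0.00509) and without tumor 15 (adjusted p 0.0085).

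**Figure D4:**
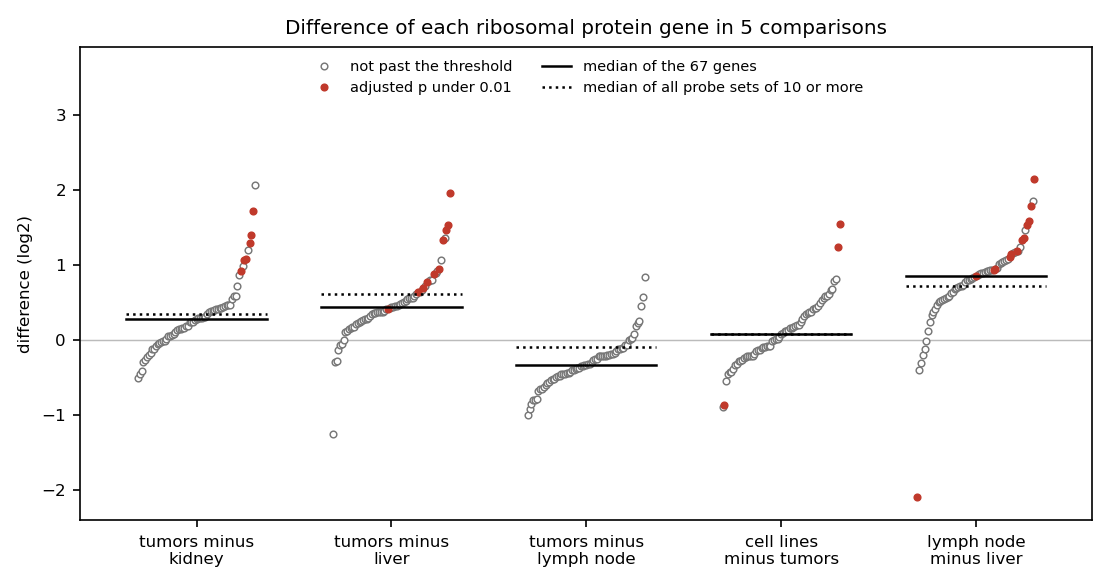
The vertical axis is the difference between group means (log2) and each point is 1 of the 67 genes, ordered by its difference within each of 5 comparisons. Filled points passed an adjusted p of 0.01. Solid lines are the median of the 67 genes and dotted lines the median of the 558 probe sets with a mean of 10 or more. The solid line is above the dotted line for lymph node minus liver (0.86 and 0.72) and below it for tumors minus liver (0.43 and 0.61).

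FAU encodes a ubiquitin-like protein fused to the small subunit protein RPS30 and lies outside the symbol rule. It was at 11.61 and 11.68 in lymph node, 10.23 and 10.52 in kidney and 10.59 and 10.15 in liver, and between 9.86 and 10.88 over the tumors (median 10.53). FAU was lower in tumors than in lymph node (tumor minus lymph node -1.22 ± 0.21, adjusted p 0.000533), and lymph node exceeded kidney by 1.27 ± 0.28 and liver by 1.28 ± 0.28 (adjusted p 0.00388 and 0.00326). Against kidney and liver the FAU tumor differences were 0.05 and 0.06.

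RPL6 and RPL31 stood apart in the cell lines, in opposite directions. RPL6, a large subunit protein also drawn to sites of DNA damage, was at 12.21 and 12.03 in the cell lines, below all 15 tumors (12.37 to 13.37, median 13.04). Its organ values were 12.97 and 13.06 in kidney, 12.96 and 12.74 in liver and 13.62 and 13.67 in lymph node, the last above every tumor. The cell line minus tumor difference of RPL6 was -0.87 ± 0.20 (adjusted p 0.00597) and was lost without either line (adjusted p up to 0.106). The call was also lost with the arrays centred on their medians (-0.76, adjusted p 0.0219), with the mean of all its probe sets (-0.24, adjusted p 0.546), with only tumors and cell lines in the fit (adjusted p 0.0116) and with arrays of full 5′ signal alone (-0.79, adjusted p 0.0553). Its 4 other probe sets gave 0.28, 0.15, -0.66 and -0.10, none of them called. RPL31, which lines the rim of the exit tunnel, was dim on this array, with tumors from 4.40 to 5.37 and a median of 4.73. The cell lines were at 6.67 and 5.41, above all 15 tumors, and kidney at 4.76 and 4.72, liver at 4.76 and 4.99 and lymph node at 5.76 and 5.85. RPL31 was higher in the cell lines by 1.23 ± 0.24 (adjusted p 0.00187), a call lost without cell line 1 (adjusted p 0.186), and its annotation gave no other probe set.

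In the cell lines, 2 of the 67 genes were higher than in the tumors (RPL31 and RPS19BP1) and 1 was lower (RPL6), beside 3.77% and 2.5% of all probe sets. The difference was positive for 37 genes and negative for 30 (median 0.08). Centring the arrays on their 75th percentile, which lowered every cell line minus tumor difference by 0.15 on average, turned the median to -0.07 with 29 positive. Centring them on their medians instead moved it to 0.18 with 45 positive. RPS19BP1, which is no ribosomal protein, was at 8.93 and 9.34 in the lines and 6.72 to 8.49 over the tumors (1.54 ± 0.31, adjusted p 0.00251), and its call was lost without either line. Without cell line 1 no gene was called, and without cell line 2 only RPL31. RPL5, which with RPL11 carries the smallest ribosomal RNA into the large subunit, was at 13.18 and 13.42 in the lines, above all 15 tumors (12.44 to 13.10, median 12.92), and missed the threshold (0.43 ± 0.14, adjusted p 0.0496). RPL5 and RPL11 are named after their values were seen. RPS23, a protein of the decoding center, was likewise above all 15 tumors, at 13.42 and 13.32 against 12.74 to 13.21 (0.35 ± 0.11, adjusted p 0.0455).

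Ribosome biogenesis factors and mitochondrial ribosomal proteins were called higher in the cell lines for 26.7% and 20.4% of their genes. Beside this, 3.77% of all probe sets were called higher, and the difference between the lists was not tested. These values rest on 2 lines, both of full 5′ signal, and fits without single samples were not read for these lists. Over the tumors, the low minus full 5′ difference had a median of 0.21 in the biogenesis factors, with 32 of 45 positive. Its median in the mitochondrial proteins was 0.37, with 47 of 54 positive. The part of 5′ signal was not tested. Of 45 measured ribosome biogenesis factors, 12 were higher in the cell lines and 0 lower (median difference 1.05, 43 positive). The largest were NOP14 (2.55 ± 0.36, adjusted p 0.000114) and UTP6 (1.85 ± 0.39, adjusted p 0.00366), both of the complex that processes small subunit RNA, and DDX21 (2.19 ± 0.50, adjusted p 0.00639), a nucleolar RNA helicase. NOP14 was at 9.45 and 9.19 in the lines and 5.78 to 7.87 over the tumors (median 6.72). Of 54 mitochondrial ribosomal proteins, which serve the separate ribosomes of mitochondria, 11 were higher and 1 lower (median 0.83, 50 positive). They included MRPL16 (1.90 ± 0.33, adjusted p 0.000806), MRPL46 (1.76 ± 0.35, adjusted p 0.00255) and MRPL19 (1.75 ± 0.31, adjusted p 0.00103), and the lower gene was MRPS18C (-0.79 ± 0.15, adjusted p 0.00151). MRPL16 was at 8.09 and 8.92 in the lines against 5.83 to 7.58 over the tumors (median 6.56). Of 29 initiation factors and of 8 genes on a list of elongation and nascent chain factors (which also holds TPT1, BTF3 and RACK1) none was called by limma, with medians of 0.42 and 0.48. An unadjusted p under 0.05 was reached by 9 and 3 of them, and by 7005 of 23836 probe sets. Macrophage markers (6 of 6 measured) averaged 7.20 to 9.43 over the tumors and 4.90 and 5.11 in the lines, and endothelial markers (2 of 3) 6.78 to 9.85 and 4.12 and 4.41, and their part in these differences was not tested.

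**Figure D5:**
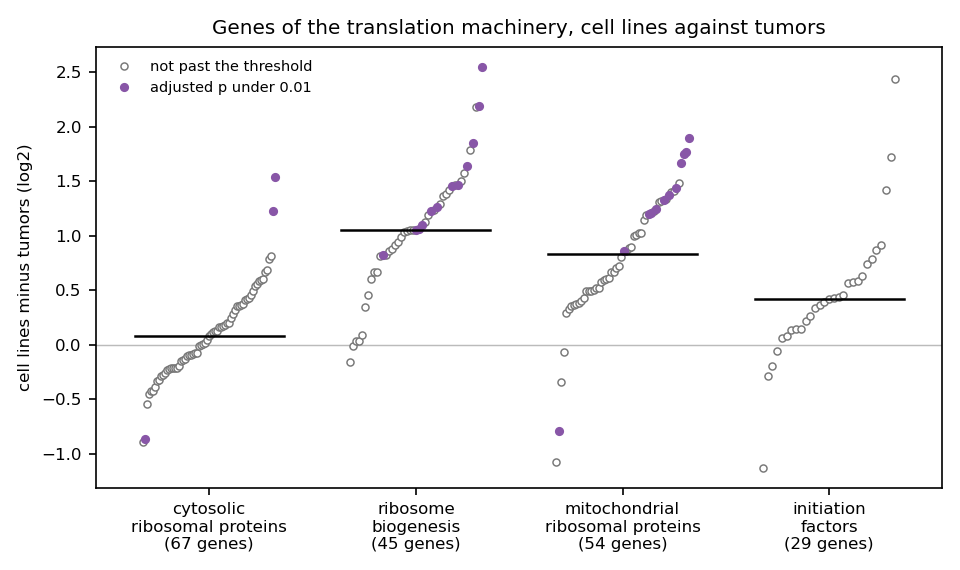
The vertical axis is the cell line minus tumor difference (log2) and each point is 1 gene of the named list, ordered by its difference. Filled points passed an adjusted p of 0.01 and horizontal lines are list medians. The median was 0.08 for the 67 cytosolic genes, 1.05 for 45 biogenesis factors, 0.83 for 54 mitochondrial ribosomal proteins and 0.42 for 29 initiation factors.

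Initiation factors were also called higher in tumors than in organs. Of the 29, 2 were higher in tumors than in the pooled organs, EIF2S2 (1.14 ± 0.19, adjusted p 0.000388) and EIF4G2 (0.47 ± 0.11, adjusted p 0.00715), which is 6.90% beside 3.02% of all probe sets and 0 of the 67 genes. Against liver 5 were higher (17.2%, all probe sets 3.42%), namely EIF2S2, EIF3A, EIF3D, EIF4G2 and EIF4G3. Against kidney 3 were higher (10.3%, all probe sets 2.0%), namely EIF2S2, EIF3A and PABPC1. None was called by limma against lymph node, where 4 of the 29 and 4053 of 23836 probe sets had an unadjusted p under 0.05. Of the 558 probe sets with a mean of 10 or more, 14.3% were called higher against the pooled organs, 23.5% against liver and 17.0% against kidney. The 29 factors include dimmer genes. Kidney 1 was the lower kidney for EIF3A (7.51 and 9.06) and PABPC1 (9.28 and 10.78), and fits without single samples were not read for this list. The difference between the shares of the factors and those of the 67 genes was not tested. EIF2S2, a subunit of the factor that delivers initiator transfer RNA, was between 10.28 and 11.47 over the tumors (median 10.97), 9.46 and 9.50 in kidney, 9.31 and 9.41 in liver and 10.51 and 10.58 in lymph node, with the cell lines at 11.52 and 11.50. Of the 45 biogenesis factors 1 (2.22%) was higher in tumors than in the pooled organs (RRP1B, 0.83 ± 0.18, adjusted p 0.00384), beside 3.02% of all probe sets. Against kidney 3 were higher (6.67%, all probe sets 2.0%), namely NOP58, NHP2 and RRP1B. Against liver 3 were higher (6.67%, all probe sets 3.42%), namely NOP58, RIOK1 and RIOK2. Of the 54 mitochondrial ribosomal proteins 1 (1.85%) was lower in tumors than in the pooled organs (MRPL48, -1.02 ± 0.24, adjusted p 0.00794), beside 2.93% of all probe sets.

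Within the 15 tumors the abundant members had a smaller median SD than all probe sets with a mean of 10 or more, though not smaller than dimmer probe sets. The median SD over tumors was 0.285 for the 49 genes with a mean of 10 or more and 0.404 for the 558 probe sets at that level, while it was 0.492 for the 18 dimmer members and 0.257 for all 23278 dimmer probe sets. The smallest SDs were those of RPS29 (0.117, from 13.05 to 13.44) and RPS23 (0.134, from 12.74 to 13.21). The abundant members also varied together. Their mean pairwise correlation over the 15 tumors was 0.361, against 0.072 for the 558 probe sets and 0.024 among the dimmer members, where the points share arrays and normalization. Within the 7 tumors of low 5′ signal it was 0.257 (0.0837 for the 558 probe sets) and within the 8 of full 5′ signal 0.433 (0.0625). The 3 tumors with the highest mean deviation of the 49 genes, tumors 4, 7 and 1 (0.28, 0.24 and 0.22), were of the low class, and the 3 lowest, tumors 9, 5 and 6 (-0.42, -0.20 and -0.07), of the full class. The part of 5′ signal in the shared variation was not otherwise tested. Tumor 9 was the lowest of the 15 for 31 genes and the highest for 5, tumor 5 the lowest for 11, and tumor 4 the highest for 15.

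The 4 largest SDs were those of RPS10 (0.846), RPL26L1 (0.834), RPS4X (0.833) and RPL10A (0.816). RPS10, a protein at the beak of the small subunit, had a tumor median of 6.92 and values of 9.65 in tumor 9 and 8.73 in tumor 14, with every other tumor between 6.59 and 7.81. RPS4X, encoded on the X chromosome, ran from 6.39 to 9.49 (median 7.15) and RPL10A from 6.29 to 9.47 (median 7.75), both with their highest value in tumor 9, the tumor with the lowest mean deviation. RPL26L1, a close copy of RPL26, had a separate pattern, with 10.01 in tumor 4, 9.69 in tumor 1 and 9.10 in tumor 7 over a tumor median of 8.15, and the cell lines at 8.47 and 9.35. Tumors 4, 1 and 7 were all of low 5′ signal, and RPL26L1 had the highest low minus full difference of the 67 genes, 0.87 ± 0.35, which missed the threshold (adjusted p 0.164). Paralogs can share probe sequence, and 42 of the 67 genes stood on probe sets whose names mark probes that match several transcripts, so that their values may include near-identical copies.

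RPL10A, RPS4X, RPS3A and RPL22 split the organs by replicate rather than by organ. RPL10A was at 9.94, 9.01 and 8.98 in replicate 1 of kidney, liver and lymph node and at 5.78, 5.49 and 5.50 in replicate 2. RPS3A was at 10.54, 10.48 and 11.18 in replicate 1 and 8.51, 8.10 and 7.87 in replicate 2, and RPS4X at 9.40, 7.85 and 7.67 against 6.27, 6.54 and 5.93. RPL22, which also binds viral and telomerase RNA, had smaller gaps of 1.53, 1.27 and 1.5. These 4 of 67 genes (5.97%) were higher by more than 1 in replicate 1 of all 3 organs, as were 0.806% of all probe sets, and RPSA alone was lower by more than 1 in all 3 (1.49%, all probe sets 1.997%). Replicate 1 of each organ was the array with low 5′ signal, and the labels do not say whether same-numbered organs came from the same dog, so that the dog and the 5′ signal cannot be told apart here. Over the tumors RPL10A differed between 7 arrays of low and 8 of full 5′ signal by 0.24 ± 0.41 (adjusted p 0.781). With these 5 genes left out, the mean deviation was 0.34 to 0.41 in lymph node, 0.15 to 0.16 in the cell lines, -0.39 to 0.28 over the tumors, -0.34 to -0.27 in kidney and -0.50 to -0.40 in liver.

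The tumors themselves fell into the same 5′ classes, and the members were compared between them as a technical contrast. Between the 7 tumors with low and the 8 with full 5′ signal, 2 genes were higher in the low class and 1 lower, beside 0.541% and 2.64% of all probe sets. The difference was positive for 48 of the 67 genes (median 0.15, all probe sets 0.05), and 22 of 67 had an unadjusted p under 0.05, as did 5092 of 23836 probe sets. Among the 49 abundant members 39 differences were positive (median 0.18) and 17 had an unadjusted p under 0.05. Of the 558 probe sets with a mean of 10 or more, 345 were positive (median 0.10) and 128 had an unadjusted p under 0.05. RPS27L, a paralog of RPS27, ran from 11.33 to 11.69 (median 11.55) in the low class and from 10.49 to 11.16 (median 10.96) in the full class (0.63 ± 0.09, adjusted p 0.000542). RPL10, which is added late to the large subunit, ran from 12.50 to 12.84 (median 12.68) and from 11.98 to 12.44 (median 12.28), a difference of 0.47 ± 0.08 (adjusted p 0.00213). RPS24, a dim probe set here, ran from 3.23 to 3.61 (median 3.31) in the low class and from 3.76 to 5.03 (median 4.50) in the full class (-1.07 ± 0.18, adjusted p 0.0015). RPL10 had 3 other probe sets, and only 1 of them shared its sign, while RPS27L and RPS24 had no other. The classes did not overlap for any of the 3 called genes, which were picked on these same values, so this adds no support. Each call held without any 1 tumor. With the 5 tumors whose arrays carried a bacterial Dap control RNA left out, all of the full class, none of the 3 was called, while the differences were of like size, 0.71 for RPS27L (adjusted p 0.0101), 0.45 for RPL10 (adjusted p 0.0517) and -1.12 for RPS24 (adjusted p 0.0167). The mean deviation of the 67 genes had a median of 0.12 in the low class (-0.07 to 0.26) and 0.02 in the full class (-0.29 to 0.15).

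RPL11, RPL22, RPL31, RPS6 and RPS24 were read by probe sets with a mean under 6, near the lower end of the scale, although their transcripts belong to an abundant class. RPS6, the small subunit protein phosphorylated when growth signalling is active, was between 3.93 and 4.23 in the cell lines and organs, with tumors from 3.98 to 5.01, and no difference of RPS6 passed the threshold. RPL11 was at 5.67 and 5.31 in the cell lines and 4.27 to 5.96 over the tumors (0.68 ± 0.33, adjusted p 0.175). The other probe sets of the 67 genes, 116 in all, had the sign of the one used in 96 of 116 cases for lymph node against liver, 96 for tumors against liver, 90 for tumors against lymph node, 75 for tumors against kidney and 69 for cell lines against tumors. Some of the 116 were called with the sign opposite to the one used. These were 3 of 8 called for tumors against kidney, 2 of 10 against liver, 2 of 3 against pooled organs and 0 of 5 against lymph node. They were 2 of 7 for cell lines against tumors, and 1 of 16 and 1 of 11 for lymph node against liver and kidney.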

How the data were processed

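RNA of 15 tumors, 2 cultured lines and 6 organ samples of dogs was measured on Affymetrix canine arrays. The authors summarized the arrays by RMA (affy, per the labels), and the deposited values are log2 expression values, quantile-normalized, from 2.52 to 14.17. RMA hides changes in total RNA and compresses differences of dim probe sets. Software versions are not given in the sources used here.

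After 77 control probe sets were set aside, 23836 were tested, of which the platform annotation gave 1 symbol to 10549, several to 138 and none to 13149. A further 45 probe sets listed a ribosomal protein among several symbols and were not used. Of the 67 members, 27 had 1 probe set and 40 had several, up to 10, and 65 symbols matched RefSeq.

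Group means were compared by limma 3.58.1 under R 4.3.3, with eBayes after lmFit, as two-sided tests with Benjamini-Hochberg adjustment over all 23836 probe sets and a threshold of adjusted p under 0.01. Tumors against pooled organs used 2 groups, and all other contrasts a model of 23 samples in 5 groups, except the 5′ contrast, over 15 tumors split at an index of 1.5. The scripts were tested on simulated data. Named were RPL6 and RPL31, members past the threshold (the 5 highest and 5 lowest where over 10 passed, the 3 highest and 3 lowest where none did), the 4 largest and 2 smallest tumor SDs, paralogs with L after the number, FAU, and up to 3 called genes of each other list. Members, lists and tests were chosen with earlier results of these data known.

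Organ samples that share a replicate number deviated together from the mean of their organ. The r was 0.607 (kidney and liver), 0.596 (kidney and lymph node) and 0.53 (liver and lymph node) over 23836 probe sets. Since the number also split each organ by 5′ signal, these correlations cannot show whether the samples were paired. The main fits used no pairing, and the replicate number entered only as a block in an alternative. Alternatives were each sample left out, other thresholds, probe set rules, filters, scalings, eBayes settings, the 5′ index and class, and the replicate block.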

Additional observations from a re-analysis of the deposited data

Results flagged for a closer look

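RPS24 in lymph node 2 stood apart from the other normal samples. It was at 5.77, where the nearest of the other 5 organ samples was at 3.81, and this gap was 0.814 of the whole range of the 6 samples, above Dixon's 95% critical value for a group of that size. It was the only such value among the 33 members examined for one, and chance alone marks about 5% of groups, so a single such value is no excess. The critical value assumes a single population, whereas the 6 samples came from 3 organs and both 5′ classes. RPS24 was dim (mean 3.94) and lower in tumors with low 5′ signal, and lymph node 2 was an array with full 5′ signal.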

How the results depend on the processing

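No called difference of a named gene changed sign under any alternative run. There were 3085 alternative values of 133 named gene results. Of these, 2770 kept their sign and their side of the threshold, 187 no longer passed it and 23 newly passed it. The other 105 changed sign and were called neither in the main fit nor in the alternative. The number of the 67 genes called depended on the settings as follows, and the cause was not tested. The shares of all probe sets called under the same settings are not given here. A change in these counts is therefore not to be read as particular to the 67 genes. Fits that left out 1 sample gave 0 to 2 calls for tumors against pooled organs, 0 to 7 against kidney, 3 to 14 against liver and 0 to 1 against lymph node, 0 to 3 for cell lines against tumors, 1 to 7 for lymph node against kidney, 4 to 6 against liver, 0 to 1 for liver against kidney and 3 to 3 for the 5′ classes. At an adjusted p under 0.05 the same comparisons, without liver against kidney, gave 3, 12, 21, 3, 6, 20, 28 and 7 calls. Leaving out members on shared-probe sets kept 25 of the 67, with the fit unchanged. Of these 25, 2 were called between tumors and kidney, 3 between tumors and liver, 2 between lymph node and kidney and 3 between lymph node and liver. On arrays with low 5′ signal alone, 2 were called between tumors and liver, 1 between lymph node and kidney and 0 between lymph node and liver. On arrays with full 5′ signal alone the counts were 0 for tumors against kidney, 1 against liver, 1 for cell lines against tumors, 0 and 1 for lymph node against kidney and liver, and 1 for liver against kidney. These leave 1 sample a side in the organs, assumed to vary like the other groups, and no cell line had low 5′ signal. With the 5′ index as a covariate, 11 genes differed between lymph node and kidney, 22 between lymph node and liver and 2 between tumors and lymph node. Tumors against lymph node gave 1 call with the mean of all probe sets per gene (as did the pooled organs), dim probe sets left out, 75th percentile centring, eBayes with trend and robust, or only the 2 groups. The replicate block over 6 organ samples gave 2 calls for lymph node against kidney and 4 against liver, where the same samples without the block gave 0 and 0. Without the Dap tumors 1 gene differed between the 5′ classes.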

Other observations

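Outside the cytosolic ribosome, 2 of 29 initiation factors (6.90%) were lower in tumors with low than with full 5′ signal, beside 2.64% of all probe sets. EIF4B, a cofactor of the helicase that unwinds messages, was lower in the low class (low minus full -2.57 ± 0.33 on the log2 scale, limma adjusted p 0.000197), as was EIF4E, the cap-binding protein (-1.66 ± 0.28, adjusted p 0.00152). In the organs EIF4B was at 4.48 and 6.84 in kidney, 4.47 and 6.70 in liver and 4.17 and 8.37 in lymph node, with replicate 1, the array of low 5′ signal, the lower each time.

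Of 12 genes of growth signalling to ribosome synthesis, RHEB, the activator of the TOR kinase, was the 1 called in the cell lines (0.88 ± 0.17, adjusted p 0.00192), at 10.53 and 10.18 against 9.14 to 9.79 over the tumors. This made 8.33% of the list called higher, beside 3.77% of all probe sets. The list median was 0.10, with 6 differences positive and 6 negative, and fits without single samples were not read for this list.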
